A study of Mus musculus with 9 samples.

Results

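The reporter IRES-mCherry was read across 6 mouse livers in which Mycl or c-Myc had been switched on, and every other gene was set against it. The 6 livers are the induced ones among 9 in the series, chosen by their column in the deposited count table: 3 carried inducible Mycl and 3 inducible c-Myc. All 9 came from C57BL/6J mice aged 4 weeks that carry R26-M2-rtTA, the activator that needs doxycycline to work. The Mycl livers have the genotype Col-TetOP-Mycl-ires-mCherry and the c-Myc livers Col-TetOP-c-Myc-ires-mCherry, and all 6 were taken 48 h after 0.2 ml of 2.0 mg/ml doxycycline was given intraperitoneally. The other 3 livers, used here as the background level, were from Mycl-inducible mice without doxycycline. They also shared in the scaling of the counts, in the removal of a length trend and in the fit of all 9 libraries. The labels number 3 libraries per group without saying whether each is a separate animal, so p-values measure only the spread between these samples. A control with doxycycline but without a transgene, and c-Myc-inducible livers without doxycycline, were not analysed here. Because Mycl and c-Myc livers come from different lines, the lines were not contrasted, and line was a covariate of the slopes given here.

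In these mice, doxycycline lets rtTA bind the tetracycline-responsive promoter of the transgene, which then makes a single RNA holding the Myc family gene, an internal ribosome entry site (IRES) and mCherry. The reporter thus marks how much transgene RNA a liver sample held. Mycl (L-Myc) and c-Myc are transcription factors that pair with MAX and bind E-box DNA. In liver, c-Myc is known for raising the genes of ribosome building, nucleotide synthesis and the cell cycle.

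IRES-mCherry differed by 5.52-fold between the lowest and the highest of the 6 livers. From lowest to highest, Mycl liver 1 had 51.4 normalised CPM (counts per 1000000 counts, on library sizes scaled by TMM), c-Myc liver 3 had 76.5, Mycl liver 2 had 146, c-Myc liver 1 had 223, Mycl liver 3 had 268 and c-Myc liver 2 had 284 CPM. The lines therefore interleaved, with a low liver in each. Reporter order is thus livers 1, 2 and 3 in the Mycl line and livers 3, 1 and 2 in the c-Myc line, and 3 values of a line are given below for its livers 1, 2 and 3. Within the Mycl livers the highest was 5.20-fold above the lowest, and within the c-Myc livers 3.71-fold. The livers without doxycycline had 1.10, 0.317 and 0.315 CPM, from 20, 5 and 4 reads. The reporter rested on 579 to 5397 reads in the 6 induced livers, and 95% exact binomial intervals, which cover counting error only, were 47.3 to 55.8 CPM for the lowest liver and 276 to 292 CPM for the highest. Counting error is thus far smaller than the differences between these livers, apart from those between neighbours such as Mycl liver 3 (260 to 276) and c-Myc liver 2, whose intervals nearly touch.

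**Figure D1:**
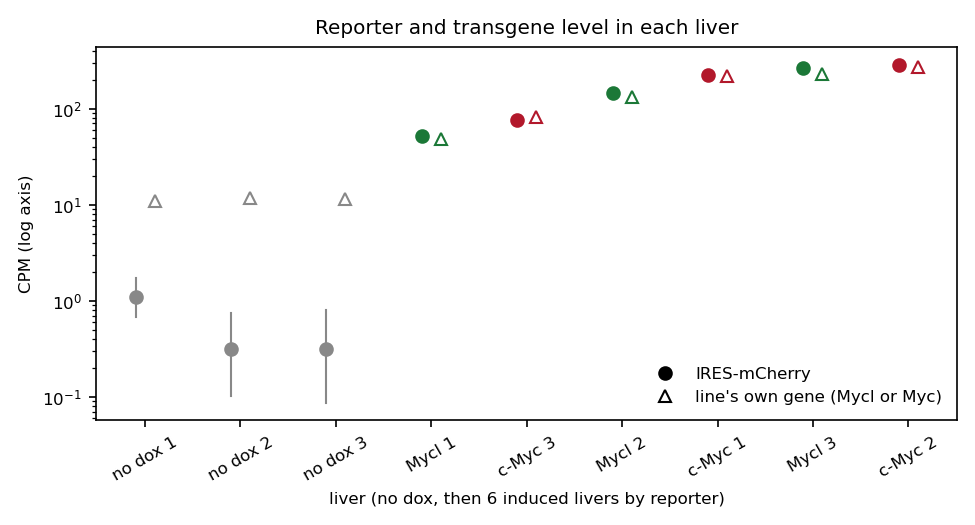
CPM on a log axis of IRES-mCherry (filled circles, with 95% exact binomial intervals) and of the line's own gene, Mycl or Myc (open triangles), in the 3 livers without doxycycline (grey) and in the 6 induced livers ordered by reporter (green, Mycl line; red, c-Myc line). The reporter runs from 51.4 to 284 CPM in the induced livers, and the open triangles follow it.

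The gene that each transgene carries followed the reporter. Mycl (ENSMUSG00000028654; chromosome 4, 122995652 to 123002485, GRCm38) stood at 48.2, 131 and 232 CPM in Mycl livers 1, 2 and 3. Myc (ENSMUSG00000022346; chromosome 15, 61985391 to 61990374) stood at 216, 272 and 82.0 CPM in c-Myc livers 1, 2 and 3. Its ratio to the reporter was 0.949 ± 0.0714 (SD, n = 6 livers, each with its line's own gene). Over the 6 livers the own gene and the reporter had a Pearson r of 0.995 (exact permutation p = 0.00139, the smallest that the pairings can give, and 0.00417 after adjustment over 3 relations) and a Spearman rho of 1 (exact permutation p = 0.00278, adjusted 0.00833). Without the 2 livers farthest from the median reporter, r was 0.986. Since both are read from the same RNA, this checks the measure and is no result about the cells. Reads of the transgene cannot be told apart from those of the resident gene.

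The gene that the transgene did not carry stood far lower. In the c-Myc livers, resident Mycl had 5.75, 7.10 and 6.60 CPM, below the 10.9 to 11.6 CPM of the livers without doxycycline. In the Mycl livers, resident Myc had 4.53, 5.40 and 14.1 CPM, which overlaps the 4.08 to 12.5 CPM without doxycycline. Mycn, the third family member, had at most 3.65 CPM in any of the 6. Max, the shared partner, had 14.0, 15.7 and 17.3 CPM in the Mycl line and 19.6, 26.0 and 13.9 CPM in the c-Myc line, which is the order of the reporter in both lines (slope 0.25, SE 0.10; edgeR adjusted p = 0.244). Its slope was 0.39 without Mycl liver 1 and 0.15 without c-Myc liver 3.

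Mycl liver 1 had the fewest counts and the highest short transcripts of the 6. Total counts ran from 11013412 to 18887413 per induced library, and Mycl liver 1, with the least reporter, had the fewest. The correlation of total counts with the reporter was r = 0.745 (exact permutation p = 0.0764, adjusted 0.0944; rho = 0.486, exact permutation p = 0.356, adjusted 0.419), and r turned to -0.847 without the 2 farthest livers. Mycl liver 1 also stood apart in its short transcripts. The 241 tested genes with a longest transcript of at most 800 nt lay a median 1.45 above the mean of the livers without doxycycline there on the log2 CPM scale, against 0.05 to 0.25 in the other 5 induced livers. The 1858 genes of the longest class lay 0.37 below it in that liver and 0.17 below it in c-Myc liver 3, which has the least reporter of its line. In the remaining induced livers they lay from 0.083 below to 0.011 above it. Over the 6 livers the short-transcript deviation and the reporter had r = -0.704 (exact permutation p = 0.0944, adjusted 0.0944; rho = -0.429, exact permutation p = 0.419, adjusted 0.419), and r turned to 0.597 without the 2 farthest livers. Of the medians of the 33 gene lists below, 26 turned sign or moved by over 1.5 times without Mycl liver 1, and 26 without c-Myc liver 3.

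**Figure D2:**
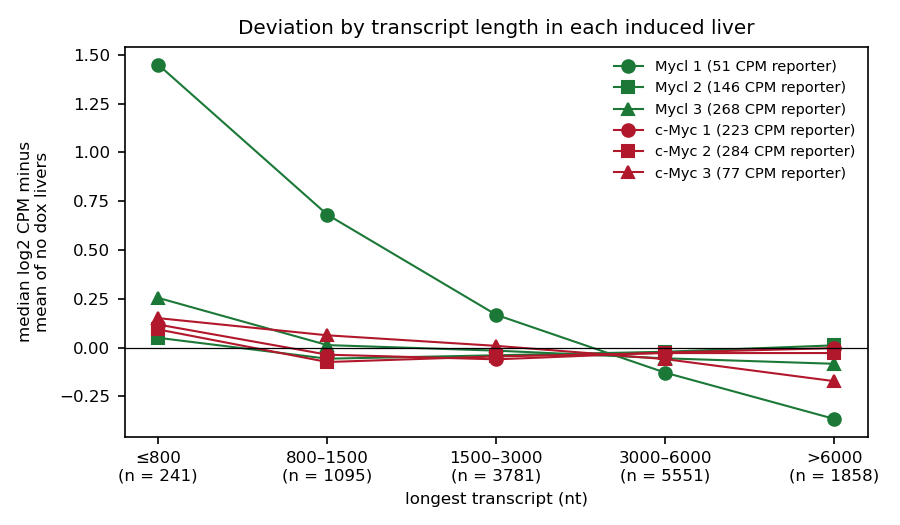
Median log2 CPM of tested genes minus their mean in the livers without doxycycline, by class of longest transcript in nt (number of genes under each class), with a line per induced liver (green, Mycl; red, c-Myc). Mycl liver 1 runs from 1.45 in the shortest class to -0.37 in the longest, and the other 5 livers stay between -0.17 and 0.25. Of these, c-Myc liver 3 is the lowest in the longest class.

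The question put to each gene was whether its log2 CPM moved with log2 reporter CPM across the 6 livers once the mean of its line was taken out. The slope is in log2 CPM per doubling of the reporter, so that a slope of 1 means a gene that doubles with it. No gene passed: of 12527 genes tested, 0% had an edgeR adjusted p under 0.05 in either direction, and the smallest adjusted p was 0.197. The fit has 3 residual degrees of freedom. At an unadjusted p under 0.05, 1066 genes (8.51%) had a positive and 1297 (10.4%) a negative slope, and limma-trend also passed 0 genes. DESeq2 on the same design passed 158 genes with a positive slope (1.26%) and 209 with a negative slope (1.67%). With the 3 livers without doxycycline added to the estimate of spread, edgeR passed 49 (0.391%) and 98 (0.782%). With library totals in place of TMM, 62.7% of the genes at an unadjusted p under 0.05 had a positive slope, against 45.1% with TMM.

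Slopes were small for most genes, with a median of 0.01 and quartiles of -0.14 and 0.15. The order of a gene's CPM matched that of the reporter in both lines for 706 genes (5.64%) and was the exact reverse in both for 726 genes (5.8%). Slopes taken within the Mycl livers and within the c-Myc livers had a Pearson r of 0.194 across the 12527 genes, and 58.8% of genes had the same sign in both. This is a description across genes that share the same 6 libraries. The difference between the slopes of the lines passed for 0 genes by edgeR (0%; smallest adjusted p = 0.405; 2 residual degrees of freedom), with 1434 genes (11.4%) at an unadjusted p under 0.05, and for 94 genes by DESeq2.

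The 12 genes named in each direction are those with the smallest p among genes above the median level and with the same sign of slope in both lines. They are values that did not pass, and all 24 have an edgeR adjusted p of 0.197. DESeq2 passed all 24, which were chosen for their small p. The slopes of the 12 with positive slopes ran from 0.46 to 0.75 (SE 0.08 to 0.13), and those of the 12 with negative slopes from -1.07 to -0.47 (SE 0.08 to 0.18). For all 24, the liver with the least reporter in each line was the extreme liver of that line. In 8 of the 12 and 9 of the 12, all 3 livers of both lines stood in the order of the reporter or its reverse. Leaving out Mycl liver 1 kept the sign of all 24. Since the 24 were chosen in these same livers for these traits, their order and kept signs are no independent evidence.

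**Figure D3:**
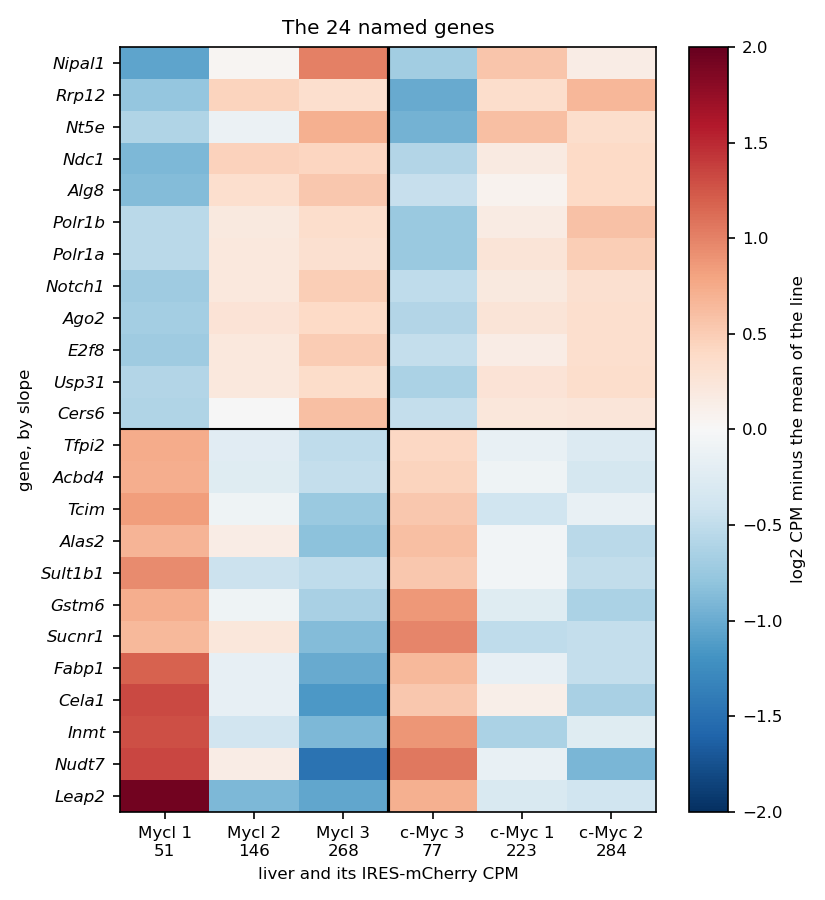
Log2 CPM minus the mean of the line (colour, red above and blue below) for the 24 named genes (rows, by slope) in the 6 induced livers (columns, by line and then by reporter CPM, rounded under each name). The livers with the least reporter, Mycl liver 1 and c-Myc liver 3, lie on the opposite side of their line's mean from both other livers in 18 of 24 rows.

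Among the genes with positive slopes, 3 belong to ribosome building. Polr1b, the second largest subunit of RNA polymerase I, which transcribes ribosomal RNA (ENSMUSG00000027395; chromosome 2, 129100995 to 129126594), had 12.4, 20.4 and 22.8 CPM in Mycl livers 1, 2 and 3 and 56.9, 76.4 and 30.3 CPM in c-Myc livers 1, 2 and 3. Both lines follow their reporter order, and the livers without doxycycline, at 16.1 to 19.98 CPM, lie above Mycl liver 1 and below all c-Myc livers. Its slope was 0.51 (SE 0.10). Polr1a, the largest subunit of the same enzyme (chromosome 6, 71909053 to 71984935), had 23.6, 39.8 and 42.8 CPM in the Mycl line and 66.5, 78.5 and 33.3 CPM in the c-Myc line, a slope of 0.49 (SE 0.09). Rrp12, which acts in the maturation and export of pre-ribosomes (chromosome 19, 41862851 to 41896173), had 6.31, 14.7 and 13.7 CPM in the Mycl line and 49.7, 62.0 and 19.5 CPM in the c-Myc line, a slope of 0.68 (SE 0.13). Here Mycl livers 2 and 3 lie close together, and only the low liver of that line stands apart.

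The other genes with positive slopes have varied roles. Notch1, a receptor of cell to cell signalling (ENSMUSG00000026923; chromosome 2, 26457903 to 26516663), had 31.8, 60.3 and 73.5 CPM in the Mycl line and 90.6, 99.5 and 55.8 CPM in the c-Myc line, a slope of 0.49 (SE 0.08). Its range without doxycycline, 67.1 to 85.4 CPM, lies inside the range of the induced livers. Ago2, the nuclease that carries small RNAs to their targets (chromosome 15, 73095844 to 73184935), had 31.9, 61.5 and 67.3 CPM and 111, 118 and 62.2 CPM, in the same order of lines and livers, a slope of 0.49 (SE 0.09). E2f8, a repressor of cell cycle genes (chromosome 7, 48866429 to 48881596), had 5.15, 9.70 and 11.97 CPM in the Mycl line and 30.1, 34.2 and 19.5 CPM in the c-Myc line, a slope of 0.47 (SE 0.09). All 3 genes follow the reporter order in both lines.

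Nipal1, a magnesium transporter, had 17.1, 36.6 and 71.2 CPM in the Mycl line but only 7.60 to 18.0 CPM in the c-Myc line (slope 0.75, SE 0.12). Nt5e, the surface enzyme CD73 that makes adenosine, had 14.3, 20.1 and 35.7 CPM in the Mycl line and 51.4, 43.2 and 17.5 CPM in the c-Myc line (slope 0.64, SE 0.12). In both genes c-Myc liver 1 stands above c-Myc liver 2, which has more reporter. The rest were Ndc1, which anchors nuclear pores (0.56, SE 0.11), Alg8, a glucosyltransferase of N-glycan assembly (0.52, SE 0.10), Usp31, a ubiquitin-specific protease (0.47, SE 0.09), and Cers6, a ceramide synthase (0.46, SE 0.08). In Mycl liver 1, 11 of the 12 genes stood below the range of the livers without doxycycline, and in c-Myc liver 1 all 12 stood above it.

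**Figure D4:**
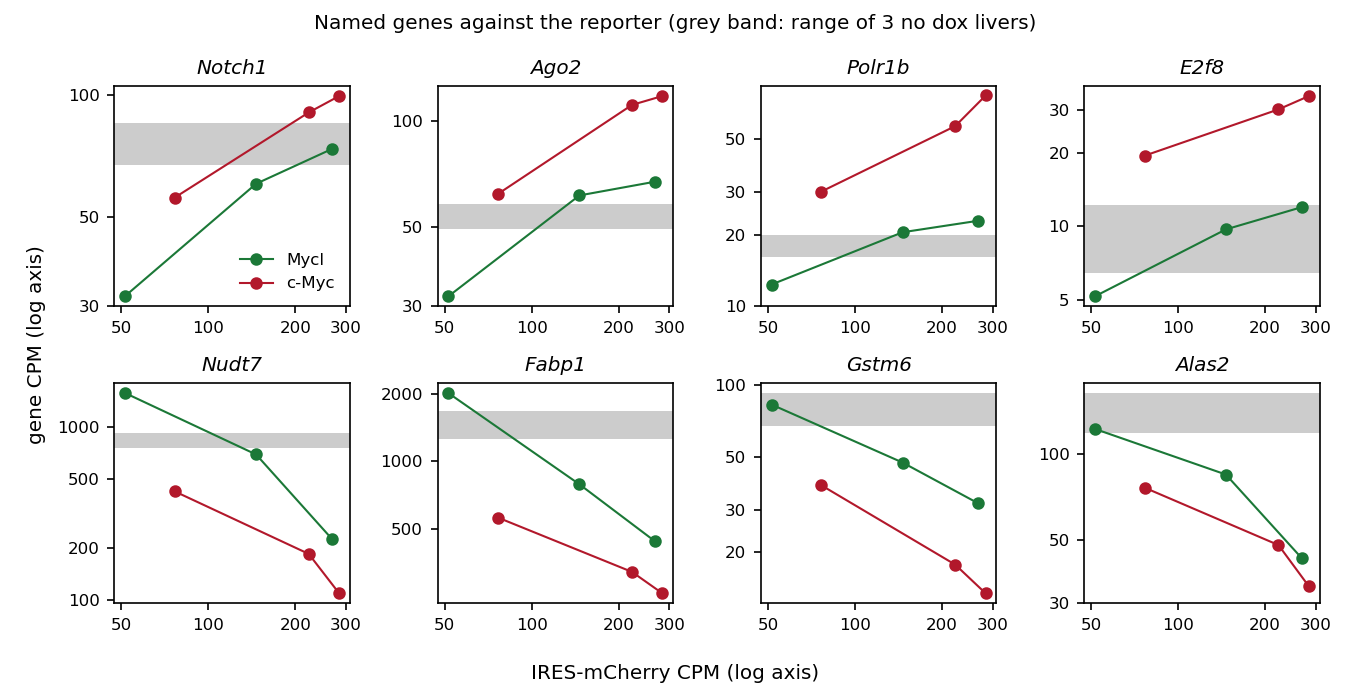
CPM of 8 named genes against IRES-mCherry CPM, both on log axes, with a point per induced liver joined within the line (green, Mycl; red, c-Myc) and a grey band for the range of the 3 livers without doxycycline. The 4 upper genes stand higher and the 4 lower genes stand lower in livers with more reporter within each line.

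The genes with negative slopes have varied roles too. Nudt7, a peroxisomal enzyme that breaks down coenzyme A (ENSMUSG00000031767; chromosome 8, 114133557 to 114154739), had 1576, 694 and 225 CPM in Mycl livers 1, 2 and 3 and 184, 109 and 424 CPM in c-Myc livers 1, 2 and 3. Each line is in the reverse order of its reporter, and the livers without doxycycline, at 759 to 920 CPM, fall between Mycl livers 1 and 2. Its slope was -1.05 (SE 0.15). Fabp1, the main fatty acid binding protein of hepatocytes (ENSMUSG00000054422; chromosome 6, 71199827 to 71205023), had 2010, 789 and 440 CPM in the Mycl line and 321, 258 and 561 CPM in the c-Myc line, against 1253 to 1673 CPM without doxycycline. Its slope was -0.78 (SE 0.13). Gstm6, a glutathione S-transferase (chromosome 3, 107938847 to 107943749), had 82.9, 47.4 and 32.0 CPM in the Mycl line and 17.7, 13.4 and 38.1 CPM in the c-Myc line, a slope of -0.65 (SE 0.08). It had the smallest p of all named genes, and its range without doxycycline was 67.5 to 92.7 CPM.

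Leap2, a liver peptide that blocks the ghrelin receptor (chromosome 11, 53422181 to 53423170), had 186, 25.9 and 23.7 CPM in the Mycl line and 9.92, 9.21 and 19.9 CPM in the c-Myc line. Its slope of -1.07 (SE 0.18) leaned on Mycl liver 1 and was -0.53 without it. Its longest transcript has 531 nt, so it belongs to the short class that is high in that liver. Fabp1, with 553 nt, belongs to that class too, and its slope was -0.63 without Mycl liver 1. Alas2, the enzyme that starts haem synthesis in red cell precursors (chromosome X, 150547375 to 150570638), had 123, 85.0 and 43.3 CPM in the Mycl line and 48.1, 34.4 and 76.4 CPM in the c-Myc line (slope -0.58, SE 0.10).

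Inmt, an indolethylamine methyltransferase, had 1125, 352 and 248 CPM in the Mycl line and 167, 217 and 474 CPM in the c-Myc line (slope -0.84, SE 0.13). The remaining genes were Cela1, an elastase (-0.84, SE 0.14), Sucnr1, the succinate receptor (-0.69, SE 0.12), Sult1b1, a sulfotransferase (-0.59, SE 0.10), Tcim, a small regulator of transcription (-0.57, SE 0.10), Acbd4, an acyl-CoA binding protein (-0.47, SE 0.08), and Tfpi2, a serine protease inhibitor (-0.47, SE 0.08). In c-Myc livers 1 and 2, all 12 genes with negative slopes stood below the range of the livers without doxycycline. In Mycl liver 1, 9 of the 12 stood above it.

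MYC and MAX are known to bind the E-box CACGTG, which reads the same on both strands. It was looked for in promoter windows of RefSeq (GRCm38.p6), from 250 bases before to 50 after each gene's start. It occurred in 2 of the 10 named genes with positive slopes that had a window and in 0 of the 9 with negative slopes, against 11.6% of 9900 tested genes with a window and 7.15% of all 32851 windows. Among genes at an unadjusted p under 0.05 it occurred in 15.9% of 832 with positive slopes and 10.7% of 1066 with negative slopes. The windows of Cers6 (chr2:68861191-68861490, plus strand) and Usp31 (chr7:121707393-121707692, minus strand) are shown because they are the 2 named genes with a match, in capitals, which in both begins 22 bases before the start. The window of Fabp1 (chr6:71199629-71199928, plus strand) is shown beside them as a named gene with a negative slope and no match.
Cers6: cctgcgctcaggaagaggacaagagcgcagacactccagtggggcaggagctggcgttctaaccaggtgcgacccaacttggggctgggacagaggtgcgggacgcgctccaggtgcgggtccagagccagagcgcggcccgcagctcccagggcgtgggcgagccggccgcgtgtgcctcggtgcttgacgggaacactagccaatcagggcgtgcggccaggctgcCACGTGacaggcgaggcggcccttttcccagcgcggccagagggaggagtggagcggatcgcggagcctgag
Usp31: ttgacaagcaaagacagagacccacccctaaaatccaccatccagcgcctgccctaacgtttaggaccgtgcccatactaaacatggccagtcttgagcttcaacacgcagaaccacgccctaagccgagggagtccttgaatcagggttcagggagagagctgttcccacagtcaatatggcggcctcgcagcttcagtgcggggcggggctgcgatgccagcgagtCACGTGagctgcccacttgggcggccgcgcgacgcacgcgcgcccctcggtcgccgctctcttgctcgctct
Fabp1: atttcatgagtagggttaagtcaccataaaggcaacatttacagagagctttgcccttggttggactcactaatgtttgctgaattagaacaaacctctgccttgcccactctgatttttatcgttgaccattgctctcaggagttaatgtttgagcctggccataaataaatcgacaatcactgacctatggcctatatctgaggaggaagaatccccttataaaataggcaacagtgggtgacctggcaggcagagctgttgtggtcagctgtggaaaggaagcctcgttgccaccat
In these letters the matches in Cers6 and Usp31 are single, and a match is a description of the sequence, not a measured binding site.

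Of 45 measured genes of ribosome biogenesis, 0 passed edgeR's adjusted test, 25 had a positive slope at an unadjusted p under 0.05 and 0 a negative one, where 8.51% and 10.4% of all tested genes did. Their median slope was 0.30, against 0.01 over all genes tested, and 41 of 45 slopes were positive. DESeq2 passed 13 of the 45 with positive and 0 with negative slopes, where 1.26% and 1.67% of all tested genes passed. The summed level of the list was 1238, 1311 and 1479 CPM in Mycl livers 1, 2 and 3 and 2972, 3860 and 1891 CPM in c-Myc livers 1, 2 and 3, against 1009 to 1042 CPM without doxycycline. Both lines stand in reporter order. In Mycl liver 1 the median member lay at -0.040 on the log2 scale against the mean without doxycycline, so part of the list carried the sum. The median member lay at 0.28 and 0.40 in Mycl livers 2 and 3. It lay at 1.34, 1.67 and 0.64 in c-Myc livers 1, 2 and 3. The median slope was 0.15 within the Mycl livers and 0.54 within the c-Myc livers, and all 45 slopes were positive within the c-Myc livers and 33 within the Mycl livers. Without Mycl liver 1 the count was 40 and the median 0.49, and without c-Myc liver 3 the count was 14, with 3 then negative, and the median 0.18, with 33 of 45 slopes positive. Over all 12527 genes, 1066 slopes were positive at that level, and 843, 1063 and 799 without Mycl livers 1, 2 and 3. Without c-Myc livers 1, 2 and 3 they were 778, 810 and 1080. The 1297 negative slopes became 650, 1179 and 576, and 1040, 1280 and 1693, in the same order.

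The genes of the ribosome's own proteins had mostly negative slopes. Of 79 cytosolic ribosomal protein genes, 0 had a positive and 9 a negative slope at an unadjusted p under 0.05, a share close to the 10.4% of all genes tested, with a median slope of -0.29. With library totals in place of TMM, 0 had a negative slope at that level, and 693 of all 12527 genes did. Within the Mycl livers the median slope was -0.47 and 2 slopes were positive, whereas within the c-Myc livers it was 0.04 and 65 were positive. The list summed to 33031 CPM in Mycl liver 1, 11580 to 17049 CPM in the other 5 induced livers and 7937 to 9570 CPM without doxycycline. Rpl41, whose longest transcript has 695 nt, shows this, with 688 CPM in Mycl liver 1, 123 to 162 CPM in the other 5 and 83.4 to 116 CPM without doxycycline. Without Mycl liver 1 the median slope turned to 0.12 with 0 genes at an unadjusted p under 0.05, and the slopes of Rpl35a, Fau and Rpl41 turned to 0.063, 0.011 and 0.11. Without Mycl liver 3 the count was also 0, and without c-Myc livers 2 and 3 it was 27 and 48, with a median of -0.45 without the latter. With the trend on transcript length removed from each library, the median of the list was -0.11. That trend uses the longest annotated transcript. Rpl35a, at 2858 nt by that measure, had a slope of -0.53 before and -0.52 after. Genes of this list have near-identical copies, so their counts are uncertain.

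At an unadjusted p under 0.05, 8.51% of all tested genes had a positive and 10.4% a negative slope. The 32 genes of mitochondrial ribosomal proteins had 0 positive and 8 negative slopes at that level, with a median slope of -0.15. The median was -0.28 within the Mycl livers and 0.04 within the c-Myc livers, and 0.04 without Mycl liver 1, when 1 gene had a positive and 0 a negative slope at that level. The negative count was 5 without Mycl liver 2, 0 without Mycl liver 3, 3 without c-Myc liver 1 and 15, with a median of -0.27, without c-Myc liver 3. With library totals in place of TMM it was 0. Mrpl13, a protein of the large mitochondrial subunit, had 93.4, 31.5 and 32.9 CPM in the Mycl line and 38.7 to 41.3 CPM in the c-Myc line.

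Genes that feed protein and nucleotide synthesis had more positive than negative slopes. Over all tested genes, 8.51% had a positive and 10.4% a negative slope at an unadjusted p under 0.05. Of 38 translation factors and tRNA synthetases, 13 had a positive and 0 a negative slope at an unadjusted p under 0.05, with a median slope of 0.15. The count was 6 without c-Myc liver 1, 5 without c-Myc liver 2, 6 without c-Myc liver 3 and 8 without Mycl liver 3. Vars, which charges tRNA with valine, had 27.7, 83.6 and 86.2 CPM in the Mycl line and 222, 266 and 154 CPM in the c-Myc line (slope 0.58, SE 0.13, and 0.34 without Mycl liver 1; edgeR adjusted p = 0.197). Both lines follow the reporter order. Of 31 genes of nucleotide and polyamine synthesis, 10 had a positive and 1 a negative slope at that level, with a median slope of 0.13. Cad, which carries the first steps of pyrimidine synthesis, had 23.4, 59.5 and 52.8 CPM in the Mycl line and 174, 238 and 79.8 CPM in the c-Myc line (slope 0.66, SE 0.13). Pfas, an enzyme of purine synthesis, had 19.99, 33.3 and 34.6 CPM and 60.9, 90.7 and 42.7 CPM (slope 0.42, SE 0.10). Without c-Myc liver 3 the count of this list was 5 and its median 0.050, without c-Myc liver 2 the median was 0.034, and without Mycl liver 1 it was 0.27.

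Of 35 DNA replication genes, 17 had a positive and 2 a negative slope at an unadjusted p under 0.05. Of all tested genes, 8.51% and 10.4% did. The median slope of the list was 0.31 (0.13 within the Mycl livers, 0.44 within the c-Myc livers). Without c-Myc liver 2 the positive count was 10, and without c-Myc liver 3 it was 3, beside 4 negative, with a median of 0.17. Pole, the catalytic subunit of a replicative polymerase, had 7.997, 20.8 and 18.9 CPM in the Mycl line and 56.6, 77.1 and 35.7 CPM in the c-Myc line (slope 0.55, SE 0.12). Lig1, which joins the fragments of the lagging strand, had 8.35, 13.6 and 15.9 CPM and 35.2, 44.8 and 27.5 CPM (slope 0.37, SE 0.08). Mcm7, part of the replicative helicase, had 20.2, 37.9 and 33.4 CPM and 86.9, 115 and 55.1 CPM (slope 0.42, SE 0.11). In all 3 genes the low liver of each line is lowest, and Mycl livers 2 and 3 lie close to each other.

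Of 34 genes of mitosis, 12 had a positive and 0 a negative slope at an unadjusted p under 0.05. Of all tested genes, 8.51% and 10.4% did. The median slope of the list was 0.30. Mki67, the proliferation antigen, had 24.5, 47.9 and 56.4 CPM in the Mycl line and 75.1, 134 and 55.3 CPM in the c-Myc line, against 6.61 to 15.9 CPM without doxycycline (slope 0.54, SE 0.11). Cenpf, a kinetochore protein, had 5.69, 8.67 and 12.9 CPM and 13.6, 29.4 and 11.1 CPM (slope 0.55, SE 0.14). Both follow the reporter order in both lines, and c-Myc liver 2, with the most reporter, is far above c-Myc liver 1. The summed level of the list was 297, 298 and 393 CPM in the Mycl line and 483, 954 and 456 CPM in the c-Myc line, so that c-Myc liver 2 stood far above the other 5. Without that liver the count was 4, with 1 negative, and the median 0.14. Without c-Myc liver 3 the count was 7, with 2 negative, without Mycl liver 3 it was 6, and without c-Myc liver 1 it was 21. The median was 0.48 without Mycl liver 1.

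Of 21 regulators of the G1/S step, 8 had a positive and 0 a negative slope at an unadjusted p under 0.05 (median slope 0.16). Of all tested genes, 8.51% and 10.4% did. The positive count of the list was 2 without c-Myc liver 3, 4 without c-Myc liver 2 and 5 without c-Myc liver 1. The median was 0.30 without Mycl liver 1, 0.26 without Mycl liver 3 and 0.10 without c-Myc liver 3. Cdkn1a, the cell cycle inhibitor p21, had 29.7, 36.9 and 54.7 CPM in the Mycl line and 31.7, 67.8 and 26.2 CPM in the c-Myc line, against 4.08 to 5.44 CPM without doxycycline (slope 0.45, SE 0.13; edgeR adjusted p = 0.197). Of 20 p53 targets and apoptosis genes, 5 had a positive and 1 a negative slope (median 0.08). Without Mycl liver 1 the positive count was 9 and the median 0.28, without c-Myc liver 3 the count was 2, and without c-Myc liver 2 the median was 0.022. Tnfrsf10b, a death receptor, had 1.95, 2.94 and 3.63 CPM in the Mycl line and 5.64, 10.5 and 3.87 CPM in the c-Myc line (slope 0.52, SE 0.15). Of the 11 tested members of the MYC, MAX and MXD network other than Myc and Mycl, 3 had a positive and 2 a negative slope, and 0 to 3 and 1 to 2 when a liver was left out. Mlxipl, the glucose-responsive factor ChREBP, had 200, 120 and 87.0 CPM in the Mycl line and 74.7, 75.9 and 107 CPM in the c-Myc line (slope -0.41, SE 0.09).

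**Figure D5:**
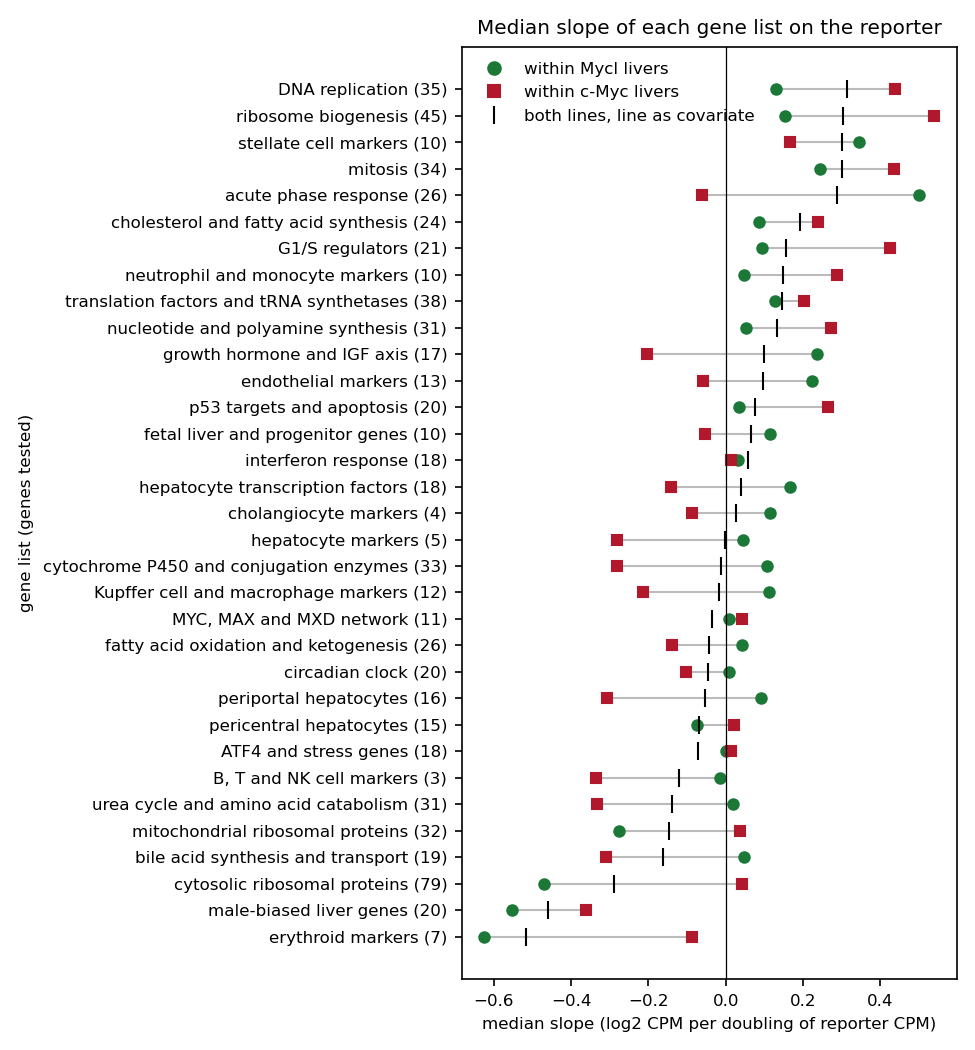
Median slope of the tested genes of each of the 33 gene lists (number tested in brackets), in log2 CPM per doubling of reporter CPM, within the Mycl livers (green circles), within the c-Myc livers (red squares) and over both with line as covariate (black bars). Ribosome biogenesis, DNA replication and mitosis lie right of 0 in both lines, male-biased liver genes lie left of 0 in both, and several liver function lists lie right of 0 within the Mycl livers and left within the c-Myc livers.

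Genes known to be more active in male than in female liver, which respond to the pattern of growth hormone release, had mostly negative slopes in both lines. Of 20 such genes, 0 had a positive and 6 a negative slope at an unadjusted p under 0.05. Of all tested genes, 8.51% and 10.4% did. In the list, 19 of 20 slopes were negative, with a median slope of -0.46. The median was -0.55 within the Mycl livers and -0.36 within the c-Myc livers. Summed, the list held 34477, 27286 and 14426 CPM in the Mycl line and 12758, 10038 and 24514 CPM in the c-Myc line, the reverse of the reporter order in each line, against 28623 to 33550 CPM without doxycycline. RNA of the Y chromosome genes Ddx3y, Uty, Kdm5d and Eif2s3y was found in every liver. It summed to 195, 180 and 168 CPM in the Mycl line and 154, 126 and 150 CPM in the c-Myc line. Without doxycycline it was 189 to 211 CPM, so each liver sample held male RNA. Hsd3b5, a steroid reductase of male liver, had 429, 279 and 25.8 CPM in the Mycl line and 39.6, 31.2 and 149 CPM in the c-Myc line, against 357 to 405 CPM without doxycycline (slope -1.30, SE 0.30). Mup3, a major urinary protein, had 12489, 5602 and 1609 CPM and 5103, 3084 and 5826 CPM (slope -0.85, SE 0.27; edgeR adjusted p = 0.2), and its reads may be shared with near-identical family members. Ghr, the growth hormone receptor, had 687, 635 and 422 CPM and 317, 230 and 487 CPM (slope -0.38, SE 0.13; edgeR adjusted p = 0.209). It belongs to the growth hormone and IGF list, in which 14 of 17 slopes were positive and 3 negative. Of that list, Cux2 had a slope of 1.27 (SE 0.41), at 0.60 to 6.34 CPM, and Insr a slope of 0.35 (SE 0.14). For the male-biased genes, the count of 6 was 14 without Mycl liver 2 and 3 without Mycl liver 3, when the median was -0.24 and the slope of Mup3 -0.51. Over all 12527 genes, the negative count of 1297 was 1179 and 576 without these livers.

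In the urea cycle, bile acid and P450 lists, the median slope was above 0 within the Mycl livers and below 0 within the c-Myc livers. Of 31 genes of the urea cycle and amino acid catabolism, 0 had a positive and 1 a negative slope at an unadjusted p under 0.05. Of all tested genes, 8.51% and 10.4% did. The median slope of the list was -0.14. It was 0.018 within the Mycl livers and -0.33 within the c-Myc livers, with 17 and 1 slopes positive. Haao, an enzyme of tryptophan breakdown, was the gene counted, with 627, 332 and 268 CPM in the Mycl line and 181, 158 and 313 CPM in the c-Myc line (slope -0.52, SE 0.10; edgeR adjusted p = 0.197). Without Mycl liver 1 the count of the list was 15 and the median -0.29, and without Mycl liver 3 they were 4 and -0.22. Over all 12527 genes, the negative count of 1297 was 650 and 576 without these livers. Without c-Myc liver 2 the median of the list was -0.093, and without c-Myc liver 3 it was 0.003. Of 19 bile acid genes (synthesis and transport), 1 had a positive and 3 a negative slope, with a median of -0.16 (0.05 within the Mycl livers and -0.31 within the c-Myc livers). Leaving out Mycl liver 1 gave 8 negative and a median of -0.28, and without c-Myc liver 2 it was -0.094 and without c-Myc liver 3 0.023. Hsd3b7, an enzyme of the bile acid pathway, had 548, 440 and 299 CPM and 280, 217 and 402 CPM (slope -0.38, SE 0.11).

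Of 33 cytochrome P450 and conjugation enzymes, 2 had a positive and 3 a negative slope at an unadjusted p under 0.05, where 8.51% and 10.4% of all tested genes did. The negative count was 10 without Mycl liver 1, when 650 of all 12527 genes had such a slope. It was 1 without Mycl liver 3 or c-Myc liver 1. The median was -0.012 in all, -0.22 without Mycl liver 1 and 0.12 without c-Myc liver 3. It was 0.11 within the Mycl livers and -0.28 within the c-Myc livers. Sult2a8, a sulfotransferase, had 1908, 682 and 409 CPM in the Mycl line and 404, 236 and 579 CPM in the c-Myc line (slope -0.80, SE 0.15). Por, the electron donor of P450 enzymes, had 102, 210 and 352 CPM in the Mycl line and 163 to 208 CPM in the c-Myc line (slope 0.45, SE 0.16, and 0.17 without Mycl liver 1, 0.28 without Mycl liver 3 and 0.71 without c-Myc liver 3; edgeR adjusted p = 0.218). Of 26 genes of fatty acid oxidation and ketogenesis, 2 had a positive and 6 a negative slope, with a median of -0.04, and 3 were negative without Mycl liver 1, Mycl liver 3 or c-Myc liver 1. Leaving out a liver gave medians of -0.14 (without Mycl liver 1) to 0.032 (without c-Myc liver 3). Slc25a20, the carnitine carrier of mitochondria, had 105, 69.1 and 67.7 CPM and 61.2, 51.5 and 72.7 CPM (slope -0.26, SE 0.08).

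Of 24 genes of cholesterol and fatty acid synthesis, 5 had a positive and 0 a negative slope at an unadjusted p under 0.05. Of all tested genes, 8.51% and 10.4% did. The median of the list was 0.19. The count was 2 without Mycl liver 1, 2 without c-Myc liver 1, 9 without c-Myc liver 2 and 3 without c-Myc liver 3, and the median was 0.11 without Mycl liver 2 and 0.12 without c-Myc liver 3. Lists of pericentral hepatocytes (15 genes), periportal hepatocytes (16), hepatocyte transcription factors (18), the growth hormone and IGF axis (17), the circadian clock (20), the interferon response (18), ATF4 and stress genes (18) and fetal liver genes (10) had 0 to 2 positive and 0 to 3 negative slopes at that level. Their medians lay between -0.07 and 0.10 and depended on single livers. Those of the growth hormone and IGF, periportal and hepatocyte transcription factor lists were -0.16, -0.26 and -0.12 without Mycl liver 1, and without c-Myc liver 3 they were 0.20, 0.071 and 0.16, with 6 positive slopes at that level in the growth hormone and IGF list. In the pericentral list, 5 slopes were positive and 10 negative. Lect2, a secreted hepatocyte protein of that list, had 130, 65.8 and 50.5 CPM in the Mycl line and 42.8, 30.9 and 49.3 CPM in the c-Myc line (slope -0.47, SE 0.10). Its slope was -0.31 without Mycl liver 1 and -0.22 with the trend on transcript length removed. Lgr5 and Znrf3 of the same list had slopes of 0.38 (SE 0.11) and 0.19 (SE 0.08), and Lgr5 followed the reporter order in both lines. Dbp, an output gene of the clock, had 12.2, 7.52 and 7.86 CPM and 3.40, 4.00 and 10.7 CPM (slope -0.52, SE 0.15, and -0.27 without c-Myc liver 3).

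The acute phase response, in which the liver secretes proteins in inflammation, had a median slope of 0.29 over 26 genes. Of the 26 slopes, 3 were positive and 1 negative at an unadjusted p under 0.05, where 8.51% and 10.4% of all tested genes were. The median was 0.50 within the Mycl livers, with 20 slopes positive, and -0.06 within the c-Myc livers, with 9 positive. It was 0.068 without Mycl liver 1, 0.11 without Mycl liver 3, 0.44 without c-Myc liver 2 and 0.45 without c-Myc liver 3. Lcn2, a secreted binder of iron carriers, had 65.5, 111 and 298 CPM in the Mycl line but 253, 58.8 and 75.3 CPM in the c-Myc line (slope 0.73, SE 0.30, and 0.47 without Mycl liver 3; edgeR adjusted p = 0.244). The Mycl livers are in reporter order and the c-Myc livers are not. The positive count was 9 without c-Myc liver 2, 10 without c-Myc liver 3, 0 without Mycl liver 3 and 1 without Mycl livers 1 or 2.

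Markers of the cell types in liver were read beside these values, since in bulk tissue fewer cells of a type and less RNA per cell cannot be told apart. The 5 tested hepatocyte markers summed to 69506, 97511 and 116562 CPM in the Mycl line and 73181, 55686 and 92041 CPM in the c-Myc line, and 0 of the 5 had an unadjusted p under 0.05 in either direction. The sums follow the reporter order in the Mycl line and its reverse in the c-Myc line. Of the 5 slopes, 3 were positive within the Mycl livers and 0 within the c-Myc livers. Ttr of this list had 6023, 4330 and 3288 CPM in the Mycl line and 2850, 2651 and 4078 CPM in the c-Myc line. It ran in the reverse of the reporter order in both lines (slope -0.35, SE 0.16, edgeR adjusted p = 0.289). DESeq2 passed it (DESeq2 adjusted p = 0.0052). Stellate cell markers had 4 positive and 1 negative of 10 at an unadjusted p under 0.05 (median slope 0.30). Of all tested genes, 8.51% and 10.4% were. The stellate sums were 605, 1353 and 1148 CPM and 1113, 2277 and 1165 CPM. Col1a1, a fibrillar collagen, was part of that sum, with 90.7, 299 and 240 CPM and 296, 799 and 285 CPM (slope 0.64, SE 0.22; edgeR adjusted p = 0.208). Without Mycl liver 1, 0 of the 10 had an unadjusted p under 0.05 and the median was 0.15, and without c-Myc liver 2 the positive count was 1.

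Of all tested genes, 8.51% had a positive and 10.4% a negative slope at an unadjusted p under 0.05. Erythroid markers had 1 positive and 5 negative of 7 tested (median slope -0.52). Their sum was 563, 243 and 192 CPM in the Mycl line and 129, 105 and 125 CPM in the c-Myc line, against 241 to 312 CPM without doxycycline. Hbb-bt, a beta globin with a transcript of 703 nt, had 45.9, 12.9 and 10.7 CPM in the Mycl line and 1.37 to 3.40 CPM in the c-Myc line, and Tfrc, the transferrin receptor that dividing cells also use, was the gene with a positive slope (0.42, SE 0.12, and 0.25 without c-Myc liver 3). Without Mycl liver 1 the median was -0.06 and 1 of 7 was negative at that level, and without Mycl liver 3 the count was 2. The slope of Alas2 was -0.64 without Mycl liver 1, and the part of these markers in it was not tested.

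For the remaining cell types, counts are at an unadjusted p under 0.05, with 8.51% positive and 10.4% negative over all tested genes. Neutrophil and monocyte markers had 3 positive and 1 negative of 10, with 1 positive without Mycl liver 3. Their sums were 86.5 to 307 CPM in the 6 livers, with the highest in Mycl liver 1. Kupffer cell and macrophage markers had 1 and 1 of 12, with sums of 503 to 648 CPM in the Mycl line and 296 to 417 CPM in the c-Myc line. Endothelial markers had 1 and 2 of 13, with sums of 386 to 624 CPM. The 4 tested cholangiocyte markers and the 3 tested markers of B, T and NK cells had 0 in either direction, and the latter list, of which 7 genes were too low to test, summed to 3.47 to 8.70 CPM. No marker list had a defining gene at 0 in all 6 livers. Which liver cells held the reporter was not measured, and the part of cell makeup in the slopes was not tested.

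Slopes differed by transcript length, taken as that of each gene's longest annotated transcript, which need not be the form present in these livers. The median slope was -0.31 over the 241 genes of the shortest class (-0.49 within the Mycl livers, -0.017 within the c-Myc livers). It was -0.20 over 1095 genes of 800 to 1500 nt (-0.28 and -0.053) and 0.13 over the 1858 genes of the longest class (0.15 and 0.10). After a smooth trend on log length was removed from each library, the class medians lay between -0.02 and 0.01. The medians of ribosome biogenesis, DNA replication, mitosis and male-biased genes were then 0.30, 0.31, 0.32 and -0.46. Those of erythroid markers, mitochondrial ribosomal proteins and bile acid genes, -0.52, -0.15 and -0.16 before, were -0.16, -0.073 and -0.067, with 2 erythroid markers negative at an unadjusted p under 0.05. Of all 33 list medians, 19 turned sign or moved by over 1.5 times. The r between the slopes of the lines across genes was then 0.148. All 24 named genes, chosen in these same livers, kept their sign, with slopes of 0.31 to 0.70 and of -1.07 to -0.34. Ago2, Usp31, Notch1 and Polr1a have longest transcripts of 9216 to 13800 nt. Their slopes of 0.49, 0.47, 0.49 and 0.49 became 0.31, 0.32, 0.35 and 0.35, while that of Alg8 (2039 nt) rose from 0.52 to 0.59.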

How the data were processed

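RNA was sequenced from 9 livers, and the 6 induced ones are analysed. The authors deposited raw, whole-number counts of reads per gene, without normalisation. Per the labels' protocols, RNA was purified on RNeasy plus columns and libraries were made with the NEBNext Ultra II Directional kit. Per the submitters' processing notes, reads were handled with HTSeq 0.11.2, STAR 2.7.8a, DESeq2 1.30.0 and cutadapt 3.0 on the mm10 build. Neither the strand setting nor the annotation release is given in the sources used here. Rows number 21703: 21702 Ensembl identifiers, 21588 of them with a symbol, and the reporter. Gene positions and lengths are from GENCODE M21 (GRCm38).

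Slopes were fitted by edgeR 4.0.16 under R 4.3.3 (glmQLFit, glmQLFTest) on line and log2 reporter CPM, scaled by TMM over all 9 libraries. Genes were kept by filterByExpr with a minimum count of 10. The reporter was left out, and Myc and Mycl were left out of counts of genes, which left 12527. The SE is the slope divided by the square root of F. P-values were adjusted by Benjamini-Hochberg over all genes. Relations across livers used exact permutation tests over 720 pairings, two-sided. Total counts were 11013412 to 18887413 in Mycl livers, 14088780 to 16482480 in c-Myc livers and 14043323 to 20079232 without doxycycline. They set the precision of low counts, and 6 libraries set that of slopes.

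The text names Myc, Mycl, Mycn and Max. Per direction it names 12 genes above the median level (18.2 CPM) with the same sign of slope in both lines and no clone-type name, by steepest slope among passing genes and otherwise by smallest p. Up to 3 members with the smallest p come from each of 33 lists. The members and lists were chosen with earlier results of these data known. Alternatives were other scalings, filters, reporter scales, DESeq2 1.42.0, limma-trend 3.58.1, all 9 libraries, line left out, a replicate block, removal of a length trend and leaving out each library. The code was tested on simulated data.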

Additional observations from a re-analysis of the deposited data

How the results depend on the processing

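All 24 named genes kept the sign of their slope under the 20 alternatives run, and all but 2 of the 12 with positive slopes, under the fit without line, stayed at an unadjusted p under 0.05. The 24 were chosen in these same livers for small p and the same sign in both lines. Keeping these traits when the same livers are refitted was largely set by that choice. The genes passing with positive and negative slopes, 0 and 0 by edgeR, were 158 and 209 by DESeq2, and 49 and 98 (0.391% and 0.782%) with all 9 libraries in the fit, of which 142 in all were shared with DESeq2's 367. They were 0 to 0 and 0 to 1 leaving out each liver, the 1 without Mycl liver 2. At an unadjusted p under 0.05, the 1066 positive slopes became 1645 with all 9 libraries and 778 to 1080 leaving out each liver. The 1297 negative slopes became 693 with library totals, 798 with linear reporter CPM and 576 to 1693 leaving out each liver, the lowest being 650 without Mycl liver 1 and 576 without Mycl liver 3. The 1434 slope differences between lines became 2217 with library totals, 832 with linear reporter CPM and 2484 with all 9 libraries, and those passing, 0 by edgeR, were 94 by DESeq2. Signs turned for Mycn (-0.36 to 0.56 leaving out each liver, the highest without Mycl liver 3) and, without Mycl liver 1, for Rpl35a (-0.80 to 0.063), Fau (-0.64 to 0.011) and Rpl41 (-0.94 to 0.11). The cause was not tested. Of the 33 list medians, 26 turned sign or moved by over 1.5 times without Mycl liver 1, 26 without c-Myc liver 3, 21 without c-Myc liver 2, 17 without Mycl liver 3, 19 with the length trend removed and 4 to 6 without Mycl liver 2 or c-Myc liver 1 or with library totals.

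Same-numbered livers of the lines had correlations of deviations of -0.053, 0.060 and -0.189, against -0.143 to 0.190 for livers with different numbers. The deviations also carry each liver's reporter level, so these values cannot show whether the replicate numbers pair the livers. With the replicate number as a block, which leaves 1 residual degree of freedom, 23 positive and 37 negative slopes passed (0.184% and 0.295%), 488 and 550 had an unadjusted p under 0.05, and 3 and 6 of the named genes passed. For male-biased genes the median was then -0.74, with 15 of 20 negative at that level.

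Depth limits low genes such as Mycn, and 3 livers a line limit every slope.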
